A study of Mus musculus with 36 samples.

Results

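The interferon response genes described here are *Ifit1*, *Ifit2*, *Ifit3*, *Isg15*, *Mx1*, *Stat2*, *Irf1*, *Irf7* and *Irf8*. They were taken from a list of 9 names by the gene symbol of the probe annotation. All 9 were measured, each by 1 oligonucleotide printed in 2 spots, so that they are 9 of the 6540 named genes, and 9 of the 8129 oligonucleotides, of the array. RNA came from quadriceps muscle of BSG mice, which lack beta-sarcoglycan, and of GSG mice, which lack gamma-sarcoglycan. Both strains carry a deficiency in the complex that ties the cytoskeleton of the muscle fibre to the matrix outside it, and their genetic background is not given in the sources used here. The ages were 1 and 2.5 weeks, then every 2 weeks between 4 and 14 weeks, and lastly 20 weeks, 9 in all, and each was represented in a strain by 2 animals, a number that limits the precision of all values below. The 36 mice were hybridised in 4 closed loops of 9 arrays, 2 loops per strain, each array setting an age against the one before it and the closing array setting 1 week against 20 weeks. Healthy mice are not analysed here, and every comparison is between ages within a strain or between the age profiles of the 2 strains. Because the arrays give ratios, the level of a gene in a strain is not known, and muscle or blood cell markers can be followed over age but not checked for presence.

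Interferons are cytokines that bind receptors on the cell surface and activate Janus kinases, which phosphorylate STAT proteins. Type I interferons act through a complex that holds Stat2 and Irf9 and binds the interferon-stimulated response element (ISRE), whereas interferon gamma acts at the gamma-activated sequence (GAS). The genes switched on encode antiviral proteins such as the Ifit family, which bind foreign RNA, the ubiquitin-like modifier Isg15 and the GTPase Mx1, and further transcription factors such as Irf1 and Irf7. Irf8 is also a factor of the macrophage and dendritic cell lineages. In sarcoglycan deficiency, muscle fibres die and regenerate, and macrophages enter the muscle while they do so.

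Promoters of the genes that varied together from mouse to mouse are shown first, because they differ in the elements they hold. The sequences are those of RefSeq for build GRCm38.p6, 300 bases each, 250 before and 50 after the start of the gene, 5′ to 3′ on the strand of the gene. The table held 1 to 2 promoters for 8 of the 9 genes, and *Mx1*, which this annotation calls a transcribed pseudogene, had none. The core of the ISRE was searched on both strands as GAAA, any 2 bases and GAAA again, and the GAS as TTC, any 3 bases and GAA, which reads the same on both strands. Capitals mark the ISRE core in *Isg15*, *Ifit1* and *Ifit3* and the GAS in *Irf8*.
Isg15 promoter, chr4:156200769-156201068, minus strand: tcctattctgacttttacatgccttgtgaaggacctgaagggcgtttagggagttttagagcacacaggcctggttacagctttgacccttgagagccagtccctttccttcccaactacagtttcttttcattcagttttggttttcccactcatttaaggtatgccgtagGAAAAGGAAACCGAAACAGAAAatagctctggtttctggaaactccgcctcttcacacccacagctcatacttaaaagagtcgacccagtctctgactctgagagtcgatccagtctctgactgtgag
Ifit1 promoter, chr19:34640639-34640938, plus strand: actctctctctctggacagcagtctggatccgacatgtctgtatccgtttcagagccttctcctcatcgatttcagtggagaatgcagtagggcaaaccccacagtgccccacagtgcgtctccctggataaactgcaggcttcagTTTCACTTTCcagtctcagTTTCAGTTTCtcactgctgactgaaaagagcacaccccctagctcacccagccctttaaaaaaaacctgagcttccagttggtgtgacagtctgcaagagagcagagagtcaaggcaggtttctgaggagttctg
Ifit3 promoter, chr19:34583279-34583578, plus strand: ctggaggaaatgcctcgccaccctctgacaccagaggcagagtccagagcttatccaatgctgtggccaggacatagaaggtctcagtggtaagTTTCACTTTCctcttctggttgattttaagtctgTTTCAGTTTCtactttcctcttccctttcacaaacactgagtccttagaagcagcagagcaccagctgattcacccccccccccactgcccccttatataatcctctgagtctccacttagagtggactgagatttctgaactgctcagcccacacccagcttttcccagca
Irf8 promoter, chr8:120736108-120736407, plus strand: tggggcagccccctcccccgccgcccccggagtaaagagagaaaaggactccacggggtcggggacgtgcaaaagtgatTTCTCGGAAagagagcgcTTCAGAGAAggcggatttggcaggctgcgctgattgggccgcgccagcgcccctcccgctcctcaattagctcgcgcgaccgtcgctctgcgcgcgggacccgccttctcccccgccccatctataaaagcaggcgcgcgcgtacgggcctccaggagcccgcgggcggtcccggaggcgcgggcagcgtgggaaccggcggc

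*Isg15* had 3 overlapping matches to the ISRE core, which run together into a stretch from base 173 to base 194. *Ifit1* had matches at bases 147 and 166 and *Ifit3* at bases 95 and 129, all of them on the minus strand. *Stat2* had 1 match, at base 29. The motif was thus present in 4 of the 8 genes, against 3.44% of all 32851 promoters of this length and 3.99% of all genes in the table. The GAS was found in *Irf8*, at bases 80 and 98, in *Irf1*, at base 161, and in *Ifit2*, at base 10, each in 1 of the 2 promoters listed for the gene, against 8.30% of all promoters and 9.55% of all genes. No match of either kind overlapped the other, and *Irf7* had neither. *Ifit1*, *Ifit2* and *Ifit3* lie close to each other on chromosome 19.

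None of the 9 genes passed the test against 1 week at any age in BSG or GSG muscle, with p-values adjusted over the whole array. Of the 32 later mice, 29 were above the 1-week mouse of their loop for *Ifit3* and *Irf8*, 25 for *Ifit1* and *Irf1* and 24 for *Isg15*, against 15 for *Ifit2* and *Stat2*, 13 for *Irf7* and 11 for *Mx1*. The largest departures belonged to single mice, a 20-week BSG mouse with high *Ifit1*, *Ifit3* and *Irf1* and a 10-week GSG mouse with high *Isg15*, *Irf7* and *Irf8*. The question of each comparison is whether a gene differs between a later age and 1 week, or has another age profile in BSG than in GSG. Values are log2 ratios, so that 1 stands for a doubling, and their direction, the later over the earlier age, is likely from the dye labels but not stated. Errors are standard errors of limma's linear model over the 36 arrays, with p-values adjusted by Benjamini-Hochberg over 8129 oligonucleotides.

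Of the 72 pairs of a gene and a later age, 0 passed an adjusted p of 0.05 in BSG, where 0.172% of such pairs passed over the whole array, and 0 of 72 passed in GSG, where 0.549% passed. At an unadjusted p of 0.05 there were 4 pairs in BSG (5.08% of all pairs on the array) and 3 in GSG (6.90%). The smallest adjusted p of a pair was 0.151 in BSG and 0.197 in GSG. The moderated F test over all ages called 0 of the 9 genes in BSG, against 0.0984% of the array, and 0 in GSG, against 0.590%. At an unadjusted p of 0.05 this F test passed 1 gene in BSG and 0 in GSG, the array having 4.00% and 7.81% of its oligonucleotides there. In BSG that gene was *Ifit1* (unadjusted p = 0.0474, adjusted p = 1.00), and in GSG the lowest value was that of *Isg15* (unadjusted p = 0.0602, adjusted p = 0.668). With 2 mice per age these tests rest on few animals, and arrays of adjacent ages share a mouse. The error of the tests mixes differences between mice with array, spot and dye error. The study describes the mice of most ages as littermates killed at a like hour, so that litter and hour of death cannot be told apart from age, and the 2 mice are not fully independent. Since 2.5 and 20 weeks meet 1 week on the same array, the error is smallest there, 0.34 for *Ifit1* at 20 weeks against 0.54 at 8 and 10 weeks.

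**Figure D1:**
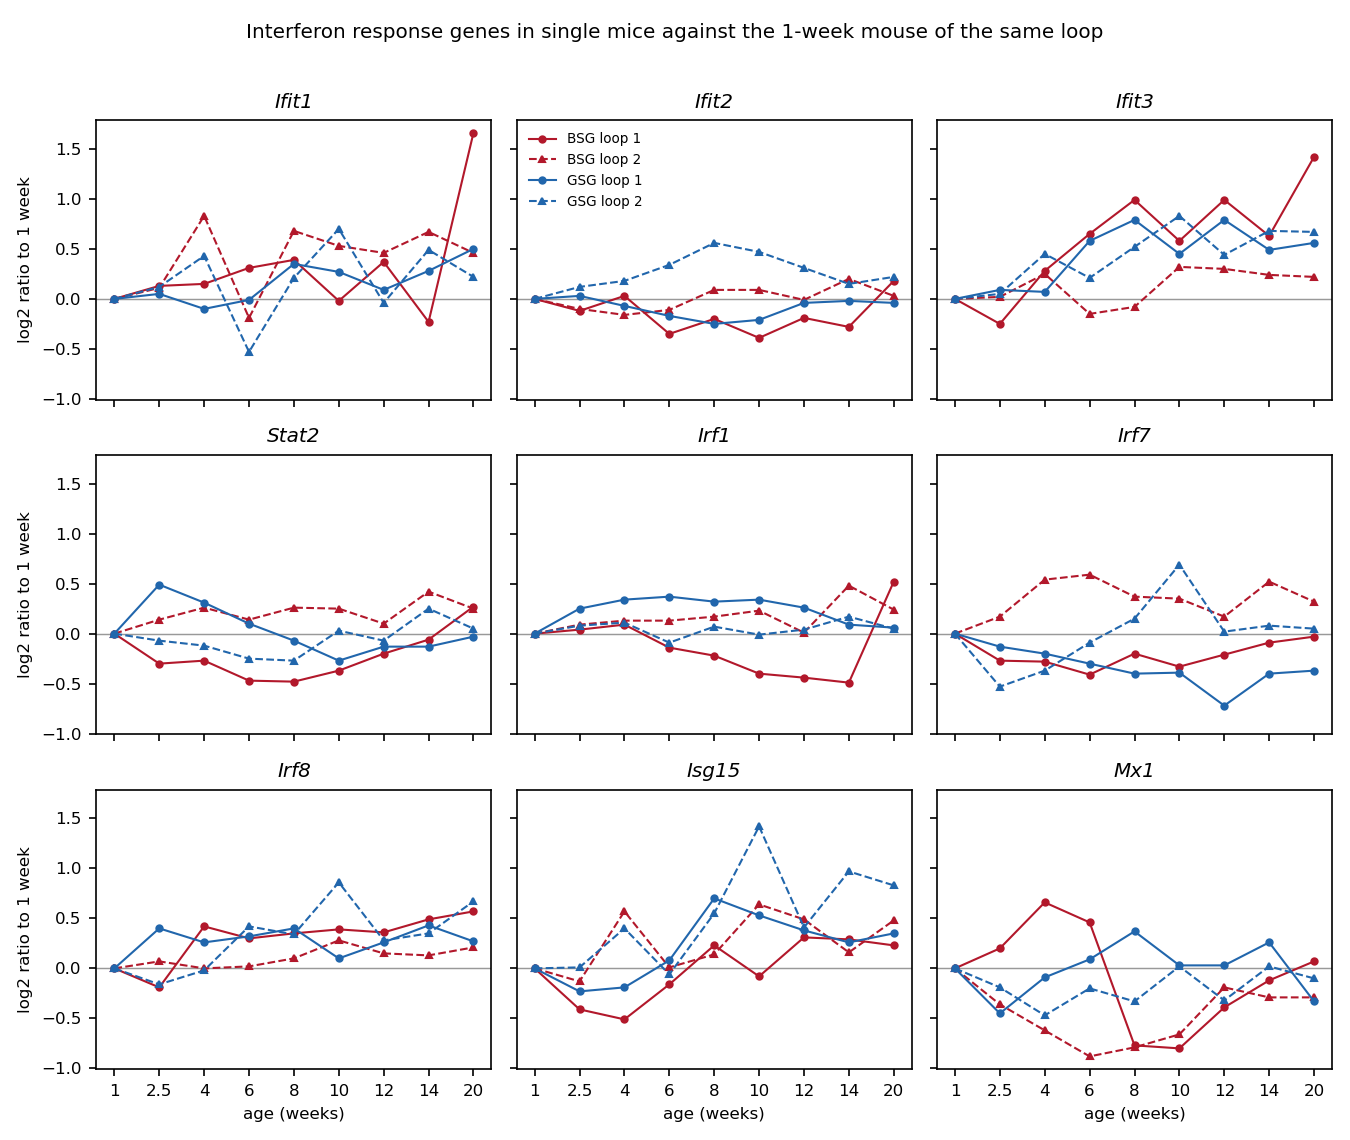
Log2 ratio of each mouse to the 1-week mouse of its loop (y axis) by age in weeks (x axis, ages evenly spaced) for the 9 genes, with 1 line per loop, BSG in red and GSG in blue. Ifit3 and Irf8 run above 0 in 29 of 32 later mice, and the 20-week BSG mouse of loop 1 reaches 1.66 for Ifit1.

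*Ifit3*, whose product belongs to the Ifit family of RNA-binding antiviral proteins, was above the 1-week mouse of its loop in 29 of 32 later mice, 13 of 16 in BSG and 16 of 16 in GSG. Over the whole array, 2.30% of oligonucleotides were above it in at least 29 later mice. The later mice of each loop are all set against 1 and the same young mouse, and a low value in it lifts them together. From 2.5 to 20 weeks the ratios in BSG were -0.25, 0.28, 0.65, 0.99, 0.58, 0.99, 0.63 and 1.42 in loop 1, and 0.02, 0.25, -0.15, -0.08, 0.32, 0.30, 0.24 and 0.22 in loop 2. In GSG they were 0.09, 0.07, 0.58, 0.79, 0.45, 0.79, 0.49 and 0.56 in loop 1, and 0.05, 0.45, 0.21, 0.52, 0.83, 0.44, 0.68 and 0.67 in loop 2. From 6 weeks on both GSG loops thus lay above 1 week, whereas in BSG loop 1 lay well above loop 2. At 20 weeks *Ifit3* was 0.82 ± 0.30 above 1 week in BSG (95% interval 0.20 to 1.43, adjusted p = 0.231) and 0.61 ± 0.30 above it in GSG (0.00 to 1.23, adjusted p = 0.342). Without the 9 arrays on which duplicate spots correlated below 0.3, the mean of the later ages in GSG was -0.41, against 0.48 with them, and the 20-week estimate 0.42. The arrays left out include that of 4 over 2.5 weeks in both GSG loops, with duplicate correlations of 0.20 and 0.24. GSG ages from 4 weeks on then meet 1 week through the closing arrays alone. In such open loops an equal offset on all arrays no longer drops out of the age estimates. The cause of the change in *Ifit3* was not tested. Its neighbour *Ifit3b* is a near copy, and whether the oligonucleotide tells them apart was not tested.

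*Ifit1*, the founding member of the same family, had the largest 20-week estimate of the 9 genes in BSG, 1.06 ± 0.34 (95% interval 0.35 to 1.76, adjusted p = 0.151). It rested on the mouse of loop 1, at 1.66, against 0.46 in loop 2. In that mouse *Ifit1* was 1.79 over the 14-week mouse on the one array, and the 1-week mouse was -1.75 relative to it on the closing array, and the 2 spots lay on the same side on both arrays (1.44 and 2.14, and -1.96 and -1.54). The other ages of BSG loop 1 lay between -0.23 and 0.39, so the gene stood out at 20 weeks alone. In BSG loop 2 the ratios from 2.5 to 20 weeks were 0.11, 0.83, -0.19, 0.68, 0.53, 0.46, 0.67 and 0.46. In GSG they were 0.05, -0.10, -0.01, 0.35, 0.27, 0.09, 0.28 and 0.50 in loop 1, and 0.12, 0.43, -0.53, 0.21, 0.70, -0.04, 0.49 and 0.22 in loop 2. The 6-week mouse was the lowest of loop 2 in both strains for *Ifit1*. At 20 weeks the GSG estimate was 0.36 ± 0.34 (-0.35 to 1.07, adjusted p = 0.755), and without BSG loop 2 the BSG estimate became 1.66, with an adjusted p of 0.0126 that then stands on 1 mouse per age.

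*Ifit2*, a further member of the family, stayed close to 1 week. Its 16 later ratios per strain ran from -0.39 to 0.20 in BSG, with a median of -0.10, and from -0.25 to 0.56 in GSG, with a median of 0.07. At 20 weeks it was 0.10 ± 0.15 above 1 week in BSG (mice 0.18 and 0.03, adjusted p = 0.944) and 0.09 ± 0.15 in GSG (mice -0.04 and 0.22, adjusted p = 0.899). Its spread around the fitted ages was 0.206, at percentile 13.3 of the array, and its 2 spots correlated at 0.09 over the 36 arrays, so that little of its variation was shared by the spots.

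*Isg15*, which encodes a ubiquitin-like protein that is linked to other proteins in interferon-treated cells, had its highest value in a GSG mouse of 10 weeks. From 2.5 to 20 weeks the ratios in BSG were -0.41, -0.51, -0.16, 0.23, -0.08, 0.31, 0.29 and 0.23 in loop 1, and -0.13, 0.57, 0.01, 0.14, 0.64, 0.49, 0.16 and 0.48 in loop 2. In GSG they were -0.23, -0.19, 0.08, 0.70, 0.53, 0.38, 0.26 and 0.35 in loop 1, and 0.01, 0.40, -0.06, 0.55, 1.42, 0.41, 0.97 and 0.83 in loop 2. From 8 weeks on both GSG loops lay above 1 week at every age, and the 10-week mouse of loop 2 was the highest of all 32 later mice. In BSG the estimate was 0.28 ± 0.40 at 10 weeks (95% interval -0.55 to 1.11, adjusted p = 0.998) and 0.36 ± 0.25 at 20 weeks (-0.17 to 0.88, adjusted p = 0.699). In GSG it was 0.97 ± 0.40 at 10 weeks (0.14 to 1.80, unadjusted p = 0.0232, adjusted p = 1.00) and 0.59 ± 0.25 at 20 weeks (0.07 to 1.11, adjusted p = 0.248). The spots of *Isg15* differed by more than 0.5 on 9 of 36 arrays. One such array was that of the 20-week over the 14-week mouse of BSG loop 1, with -0.80 and 0.66.

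*Mx1*, a GTPase that restricts influenza virus and is defective in many inbred mouse strains, had lower values in BSG at 8 and 10 weeks, none of them past the threshold. At 8 weeks the estimate was -0.78 ± 0.39 in BSG (mice -0.77 and -0.79, 95% interval -1.58 to 0.02, adjusted p = 0.881), and at 10 weeks -0.73 ± 0.39 (mice -0.80 and -0.66, adjusted p = 0.998). In GSG it was 0.02 ± 0.39 at 8 weeks (mice 0.37 and -0.33) and 0.03 ± 0.39 at 10 weeks (mice 0.03 and 0.02). The BSG mice came to these values by different paths, for in loop 1 the ratios at 4 and 6 weeks were 0.66 and 0.46, and in loop 2 they were -0.62 and -0.88. In loop 1 the step lay on the array of the 8-week over the 6-week mouse, where the spots of *Mx1* were -2.29 and -0.08, and duplicate spots of that array correlated at 0.24 over all oligonucleotides. The gene was above 1 week in 11 of 32 later mice.

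*Stat2*, the STAT protein of the type I complex, did not depart from 1 week in the same direction in the loops. Its 16 later ratios ran from -0.48 to 0.42 in BSG and from -0.27 to 0.49 in GSG. In BSG the ratios of loop 1 were below 0 at 7 of 8 later ages, up to 14 weeks, and all 8 of loop 2 were above 0. At 20 weeks it was 0.26 ± 0.15 in BSG (mice 0.27 and 0.25, adjusted p = 0.564) and 0.01 ± 0.15 in GSG (mice -0.03 and 0.05, adjusted p = 0.998). Its spots correlated at 0.08.

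*Irf1*, a factor induced by interferon gamma and at the head of many of its targets, was high in the 20-week mouse of BSG loop 1, at 0.52, after values down to -0.49 at 14 weeks in the same loop. The 20-week mouse of loop 2 was at 0.24, and the estimate was 0.38 ± 0.18 (95% interval 0.01 to 0.74, adjusted p = 0.405). In GSG the mice were at 0.06 and 0.05 at 20 weeks, with an estimate of 0.05 ± 0.18 (adjusted p = 0.964). Over all ages the 16 later ratios of *Irf1* ran from -0.49 to 0.52 in BSG and from -0.09 to 0.37 in GSG, a difference in spread that was not tested.

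*Irf7*, the factor that amplifies type I interferon production, took opposite directions in the loops of BSG. There all 8 later ratios of loop 1 were below 0, from -0.41 to -0.03, and all 8 of loop 2 above 0, from 0.17 to 0.59. In GSG all 8 of loop 1 were below 0, the lowest being -0.72 at 12 weeks, while loop 2 was below 0 up to 6 weeks, with -0.53 at 2.5 weeks, and above it from 8 weeks on, with 0.69 at 10 weeks. At 20 weeks the estimate was 0.15 ± 0.28 in BSG, with a 95% interval of -0.43 to 0.73, and -0.16 ± 0.28 in GSG, with one of -0.74 to 0.42. The adjusted p-values were 0.963 for BSG and 0.910 for GSG.

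*Irf8*, the factor of the macrophage lineage, was above the 1-week mouse in 29 of 32 later mice, 15 of 16 in BSG and 14 of 16 in GSG. From 2.5 to 20 weeks the ratios in BSG were -0.19, 0.42, 0.30, 0.35, 0.39, 0.36, 0.49 and 0.57 in loop 1, and 0.07, 0.00, 0.02, 0.10, 0.28, 0.15, 0.13 and 0.21 in loop 2. In GSG they were 0.40, 0.26, 0.32, 0.40, 0.10, 0.26, 0.43 and 0.27 in loop 1, and -0.16, -0.02, 0.42, 0.34, 0.86, 0.28, 0.35 and 0.67 in loop 2. From 6 weeks on every mouse of both strains was above 1 week. At 20 weeks *Irf8* was 0.39 ± 0.19 above 1 week in BSG (95% interval 0.00 to 0.77, adjusted p = 0.428) and 0.47 ± 0.19 above it in GSG (0.08 to 0.85, adjusted p = 0.197), the lowest adjusted p of the 9 genes in GSG. RNA from whole muscle was measured, so that more cells with a transcript and more of it per cell cannot be told apart, for this gene or the others.

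At 20 weeks 8 of the 9 genes were above 1 week in BSG and 7 of 9 in GSG, with median log2 ratios of 0.36 and 0.09. Over all 8129 oligonucleotides 46.8% were above 1 week in BSG, with a median of -0.02, and 48.1% in GSG, with a median of -0.01. Both mice were above 1 week for 7 of 9 genes in BSG, against 23% of the array, and for 5 of 9 in GSG, against 28.3%. The call rate of the array was highest at this age, with 1.28% called in BSG and 3.74% in GSG, and 0 of the 9 genes were among them in either strain. At an unadjusted p of 0.05 there were 4 of the 9 genes in BSG, all higher, against 11.6% of the array, and 2 of 9 in GSG, both higher, against 14.7%. Without BSG loop 1, 0 remained in BSG at this or any other later age, and the smallest adjusted p over all later ages became 0.999. At the other ages the median of the 9 genes ran from -0.08, at 2.5 weeks, to 0.22, at 14 weeks, in BSG, and from 0.01, at 6 weeks, to 0.19, at 8 weeks, in GSG.

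**Figure D2:**
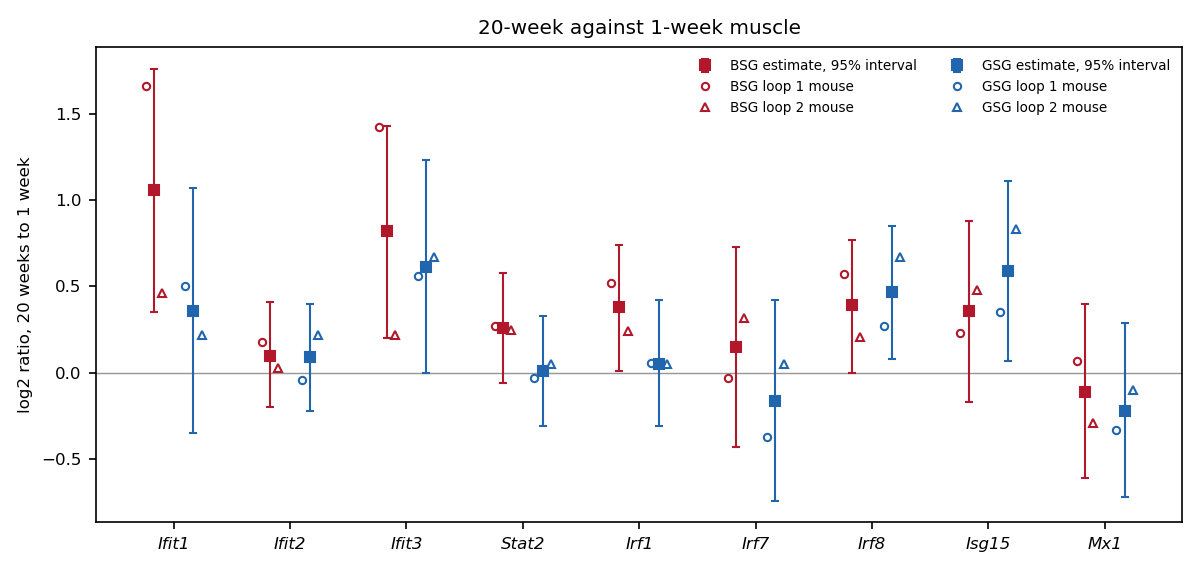
Log2 ratio of 20 weeks to 1 week (y axis) for the 9 genes (x axis), BSG in red left of GSG in blue. Squares are estimates with 95% intervals, circles the mouse of loop 1 and triangles the mouse of loop 2. In BSG the loop 1 mouse lies far above the loop 2 mouse for Ifit1 (1.66 and 0.46) and Ifit3 (1.42 and 0.22).

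The age profiles of BSG and GSG were compared next. A Hotelling test of the study's design, which fits each profile as a curve of degree 2 over the time points, called 0 of the 9 genes and 0 of all 8129 oligonucleotides, and at an unadjusted p of 0.05 it passed 0 of the 9, against 4.40% of the array. The lowest unadjusted p values were those of *Stat2* (0.190) and *Irf1* (0.200), and the adjusted p of all 9 was 1.00. The moderated F test of the 8 age differences also called 0 of the 9 genes and 0 of the array, with 0 of the 9 at an unadjusted p of 0.05, against 1.27%. Of the 72 pairs of a gene and an age, 0 differed between strains at an unadjusted p of 0.05, against 2.87% of the pairs on the array. At 20 weeks the difference of BSG minus GSG was 0.70 for *Ifit1* (95% interval -0.30 to 1.70), 0.21 for *Ifit3* (-0.66 to 1.08), -0.23 for *Isg15* (-0.97 to 0.51) and -0.08 for *Irf8* (-0.62 to 0.46). The intervals leave room for differences of either sign, and of a doubling for *Ifit1* and *Ifit3*. They are narrowest for *Ifit2*, at 0.01 (-0.42 to 0.45), and *Stat2*, at 0.25 (-0.20 to 0.70).

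Single mice stood apart across several of the genes. For these comparisons the value of a mouse is its log2 value relative to the mean of the 9 mice of its loop. The 20-week mouse of BSG loop 1 was above its loop in 9 of 9 genes, with 1.35 for *Ifit1*, 0.83 for *Ifit3*, 0.64 for *Irf1*, 0.48 for *Stat2* and 0.32 for *Ifit2*, and a median of 0.32. Over the whole array 51.7% of oligonucleotides were above the loop mean in this mouse, with a median of 0.01. Its partner of the same age in BSG loop 2 had a median of 0.07 over the 9 genes and a highest value of 0.22, that of *Isg15*. On the arrays of the high mouse, duplicate spots correlated at 0.32 (20 over 14 weeks) and 0.77 (1 over 20 weeks) over all oligonucleotides.

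The 10-week mouse of GSG loop 2 was above its loop in 8 of 9 genes, with 0.91 for *Isg15*, 0.69 for *Irf7*, 0.56 for *Irf8*, 0.52 for *Ifit1* and 0.41 for *Ifit3*. Its median of 0.41 was the highest of the 36 mice, and the 20-week mouse of BSG loop 1 came next. *Isg15* was 0.86 above the 8-week mouse on the one array of this mouse and the 12-week mouse was -1.02 relative to it on the other, with all 4 spots on the same side. Of the whole array 45.0% was above the loop mean in this mouse. The mouse of the same age in GSG loop 1 had a median of 0.03, with *Isg15* at 0.32. All of the 9 genes except *Irf1* were thus above the loop mean in both mice. *Irf1* was at 0.64 in the 20-week BSG mouse and -0.06 in the 10-week GSG mouse, and *Irf7* at 0.17 in the 20-week BSG mouse and 0.69 in the 10-week GSG mouse, differences between single mice that were not tested.

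**Figure D3:**
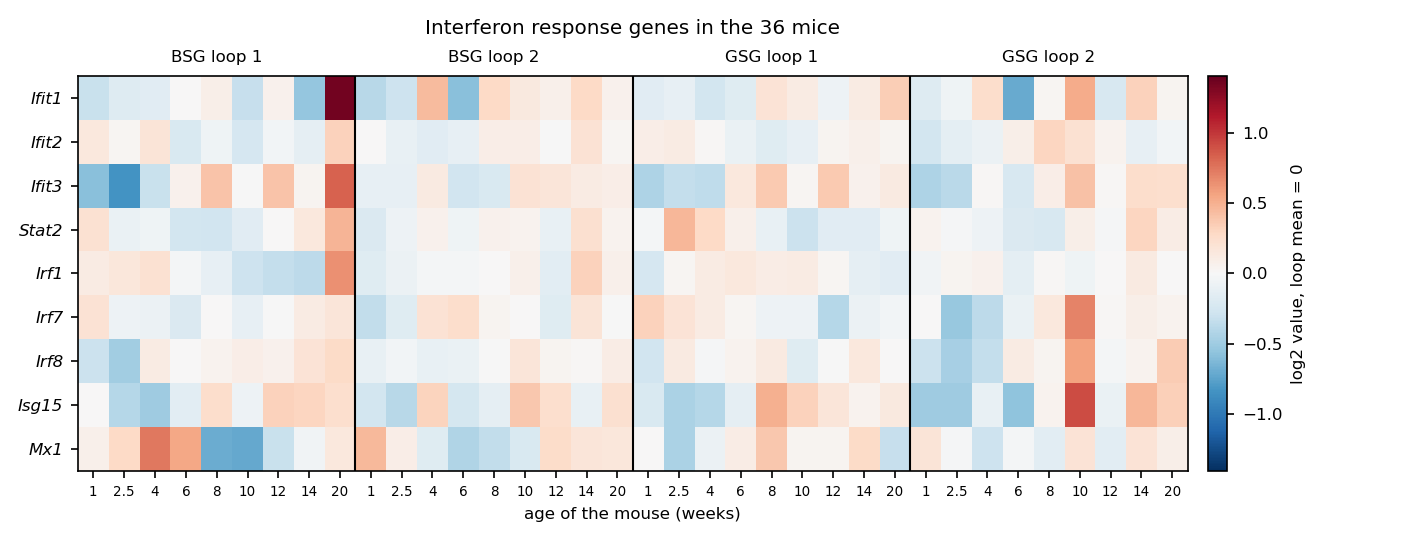
Log2 value of each gene (rows) in each of the 36 mice (columns, labelled by age in weeks), relative to the mean of the 9 mice of its loop, red above and blue below it. BSG loops are left of GSG loops. The 20-week mouse of BSG loop 1 (Ifit1 1.35) and the 10-week mouse of GSG loop 2 (Isg15 0.91) stand out in several rows.

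Over the 36 mice some of the genes varied together, which is given as a description. The mice of a loop differ in age and share arrays and the loop mean. *Ifit3* and *Isg15* had a Pearson correlation of 0.74 (Spearman 0.81, and 0.78 by Pearson without the 2 mice farthest from the median of *Ifit3*). It was 0.68 over the 18 BSG mice and 0.87 over the 18 GSG mice. *Ifit3* and *Irf8* correlated at 0.67, *Ifit1* and *Ifit3* at 0.63, *Ifit1* and *Isg15* at 0.55, and *Irf8* and *Isg15* at 0.55. The sixth pair above 0.5, *Ifit1* and *Irf1* at 0.54, fell to 0.24 without the 2 farthest mice and thus rests on them. These 6 pairs are 16.7% of the 36 pairs, against 3.79% of the pairs among every 8th oligonucleotide of the array, and the median correlation was 0.25 against 0.00. *Mx1* correlated with the other genes between -0.12 and 0.33. The promoters printed above were chosen for this variation, so that nothing can be read from their motifs about it. *Stat2*, which has an ISRE core and was not printed, correlated with *Ifit3* at 0.05.

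The 5 genes outside the list most like the mean of the 9 genes over the 36 mice were *Cd53*, a surface protein of leukocytes (0.76), *Tgtp1*, a GTPase induced by interferon gamma (0.75), *Mmp12*, the elastase of macrophages (0.75), *Emb*, a cell adhesion protein (0.73), and *Ifi47*, a further interferon-induced GTPase (0.73). Without the 2 farthest mice the correlations were 0.63, 0.70, 0.62, 0.62 and 0.52. The mean was taken without scaling and does not follow the 9 genes alike. It correlated at 0.81 with *Ifit1*, 0.74 with *Ifit3*, 0.72 with *Isg15* and 0.67 with *Irf8*, and between 0.26 and 0.50 with the others. Of the 5 genes, *Tgtp1* was raised at 20 weeks in BSG, by 2.15 (mice 3.0 and 1.30, adjusted p = 0.0156), and *Emb* in GSG, by 0.92 (adjusted p = 0.0474).

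Macrophage and monocyte markers had the highest 20-week medians of all lists, and 3 of the 9 genes varied with them over the 36 mice. Of 18 listed markers 13 were measured. The study had picked *Mpeg1*, *Lgals3*, *Laptm5* and a lysozyme gene, partly on these arrays, for temporary upregulation in its dystrophic strains. The rise of the list is therefore not independent of that choice. At 20 weeks 0 were called higher in BSG, against 0.431% of the array, and 5 in GSG, against 0.713%, with medians of 0.88 in BSG and 0.97 in GSG and 12 of 13 above 1 week in each strain. Those called in GSG included *Mpeg1*, a pore-forming protein of macrophages (2.09, mice 1.92 and 2.25), *Lyz1*, a lysozyme (1.90, mice 1.55 and 2.24), *Lgals3*, which encodes galectin-3 (1.98, mice 1.31 and 2.65), and the lysosomal marker *Cd68* (1.45, mice 1.36 and 1.54). The fifth, outside the naming rule, was *Ctss*, which encodes cathepsin S (1.55, mice 1.21 and 1.90). The marker not above 1 week, also outside the naming rule, was in each strain *Lyz2*, a further lysozyme (-0.26 in BSG and -0.06 in GSG). The median of the 13 markers, relative to the loop mean, lay between -0.86 and -0.20 in the BSG mice and between -0.53 and -0.45 in the GSG mice of 1 week, and between -0.32 and 0.88 in BSG and -0.44 and 0.88 in GSG from 4 weeks on. Over the 36 mice this median correlated at 0.79 with *Irf8*, 0.77 with *Ifit3* and 0.65 with *Isg15*, at 0.29 with *Ifit1*, and between -0.19 and 0.20 with the other 5 genes. The mice span 9 ages, so that a shared change with age enters these values. *Irf8*, *Ifit3* and *Isg15* also correlated with the median of class I presentation and immunoproteasome genes, at 0.53, 0.60 and 0.54. With that of genes of newborn muscle they correlated at -0.58, -0.55 and -0.51. The part of macrophages in the values of *Irf8*, *Ifit3* and *Isg15* was not tested. The 2 mice described above had medians of 0.52 (20-week BSG) and 0.77 (10-week GSG) for these markers, the first below the highest BSG mouse, that of 14 weeks in loop 1, at 0.88.

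Markers of T, B, NK and dendritic cells were above 1 week at 20 weeks for 11 of 15 oligonucleotides in each strain, by small amounts. Of 20 listed, 14 were measured by 15 oligonucleotides. At any age 0 were called, against 0.172% of all pairs of an oligonucleotide and an age in BSG and 0.549% in GSG. Medians at 20 weeks were 0.12 in BSG and 0.07 in GSG. The gene of this list with the lowest F test p was *Prf1*, the perforin of cytotoxic cells (BSG, unadjusted p = 0.0508), at -0.18 in BSG and -0.35 in GSG at 20 weeks. At an unadjusted p of 0.05, 4 of the 15 were higher in BSG at 20 weeks and 0 in GSG, against 11.6% and 14.7% of the array in either direction. Those 4 were named after their values were seen, and their adjusted p-values were 0.118 to 0.314. *Itgax*, the integrin of dendritic cells and some macrophages, was at 0.64 (mice 0.67 and 0.60). *Klrd1*, a receptor of NK cells, was at 0.62 (mice 0.99 and 0.26). *Gzma*, a granzyme, was at 0.49 (mice 0.92 and 0.06) and *Ms4a1*, the B cell marker CD20, at 0.44 (mice 0.80 and 0.09). Other markers, such as *Klrb1c* (0.10), *Ncr1* (0.12), *Gzmb* (0.09), *Cd79a* (0.12) and *Flt3* (-0.06), lay closer to 1 week in BSG. The median of all 15 oligonucleotides of the list was the highest of the 36 mice in the 20-week mouse of BSG loop 1, at 0.26. In the 10-week mouse of GSG loop 2 that median was -0.01. The part of these cell types in the values of *Ifit1* and *Irf1* in the 20-week BSG mouse was not tested. Adult muscle fibre markers, 9 of 14 measured, had medians at 20 weeks of 0.19 in BSG and 0.37 in GSG. Of them 0 were called, against 1.28% of the array in BSG and 3.74% in GSG. They were above the loop mean for 1 of 9 genes in the 20-week BSG mouse and 0 of 9 in the 10-week GSG mouse. In this list *Pvalb*, the calcium buffer of fast fibres, had the lowest F test p (GSG, unadjusted p = 0.0424), with 0.64 in BSG and 1.06 in GSG at 20 weeks.

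Other interferon-stimulated genes were called in both directions. Of 45 listed 22 were measured. At 20 weeks 16 of them were above 1 week in BSG and 12 in GSG, against 46.8% and 48.1% of the array. At an unadjusted p of 0.05, 9 were higher and 2 lower in BSG, and 5 higher and 2 lower in GSG. Of the whole array 11.6% passed that p in BSG and 14.7% in GSG, in either direction. At 20 weeks 2 were higher and 1 lower in BSG, against 0.431% of the array called higher and 0.849% lower, and in GSG 0 were higher and 1 lower, against 0.713% and 3.03%. Taking all 22, the median ratio was 0.31 for BSG and 0.10 for GSG. *Tgtp1*, given above for BSG, was at 1.04 in GSG (mice 0.99 and 1.10, adjusted p = 0.238), and its near copy *Tgtp2* may share the oligonucleotide. *Iigp1*, a GTPase that attacks the vacuoles of intracellular parasites, was higher in BSG (1.16 ± 0.25, mice 1.55 and 0.77, adjusted p = 0.0191) and at 0.68 in GSG (mice 1.03 and 0.32, adjusted p = 0.151). *Gbp4*, a guanylate-binding protein, was lower at 20 weeks in BSG (-0.88 ± 0.21, mice -0.85 and -0.92, adjusted p = 0.0324) and in GSG (-1.22 ± 0.21, mice -1.58 and -0.86, adjusted p = 8.55e-04), and in GSG it was the 1 gene of the list called by the F test over all ages (adjusted p = 0.0418). The 20-week mouse of BSG loop 1 had the highest median of this list among the 36 mice, at 0.55, with *Tgtp1* at 2.40, and the median correlated at 0.76 with *Ifit1* (0.54 without the 2 farthest mice), 0.72 with *Ifit3* and 0.63 with *Isg15*.

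Upstream of the response, no interferon gene passed the test. All 11 listed ligands, namely *Ifnb1*, *Ifng* and alpha genes, which are much alike in sequence, were measured, and 0 were called in either strain. At 20 weeks 1.28% of the whole array was called in BSG and 3.74% in GSG. With 5 to 11 oligonucleotides per list here, 0 or 1 call says little about a list beside these shares. *Ifnb1* was at 0.21 in BSG and 0.14 in GSG at 20 weeks, *Ifng* at 0.11 in BSG and -0.08 in GSG, and *Ifna9*, with the lowest F test p of the list (GSG, unadjusted p = 0.0650), at -0.12 in BSG and -0.16 in GSG. Among receptors, kinases and partners, 8 of 10 were measured, 0 were called in BSG and 1 in GSG. This was *Ifnar1*, a chain of the type I receptor, which was at -0.14 in BSG at 20 weeks (mice -0.10 and -0.19, adjusted p = 0.938) and fell by 0.84 in GSG (mice -0.72 and -0.96, adjusted p = 0.0111). Of the sensors of foreign nucleic acid, 5 of 10 measured, *Zbp1* was higher in BSG (0.99 ± 0.24, mice 1.43 and 0.55, adjusted p = 0.0427) and at 0.49 in GSG (adjusted p = 0.369). *Tlr9*, a receptor for DNA, was at -0.10 in BSG (adjusted p = 0.954) and fell by 0.61 in GSG (mice -0.37 and -0.85, adjusted p = 0.0234). The other IRF factors and inhibitors, 7 of 10 measured, and the class I presentation and immunoproteasome genes, 6 of 16 measured by 7 oligonucleotides, had 0 called in either strain. Their lowest F test p values were those of *Socs1*, an inhibitor of Janus kinases (GSG, unadjusted p = 0.0259), at 0.09 in BSG and -0.21 in GSG at 20 weeks, and of *Psmb10*, an immunoproteasome subunit (GSG, unadjusted p = 0.0136), at 0.27 in BSG and 0.41 in GSG.

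**Figure D4:**
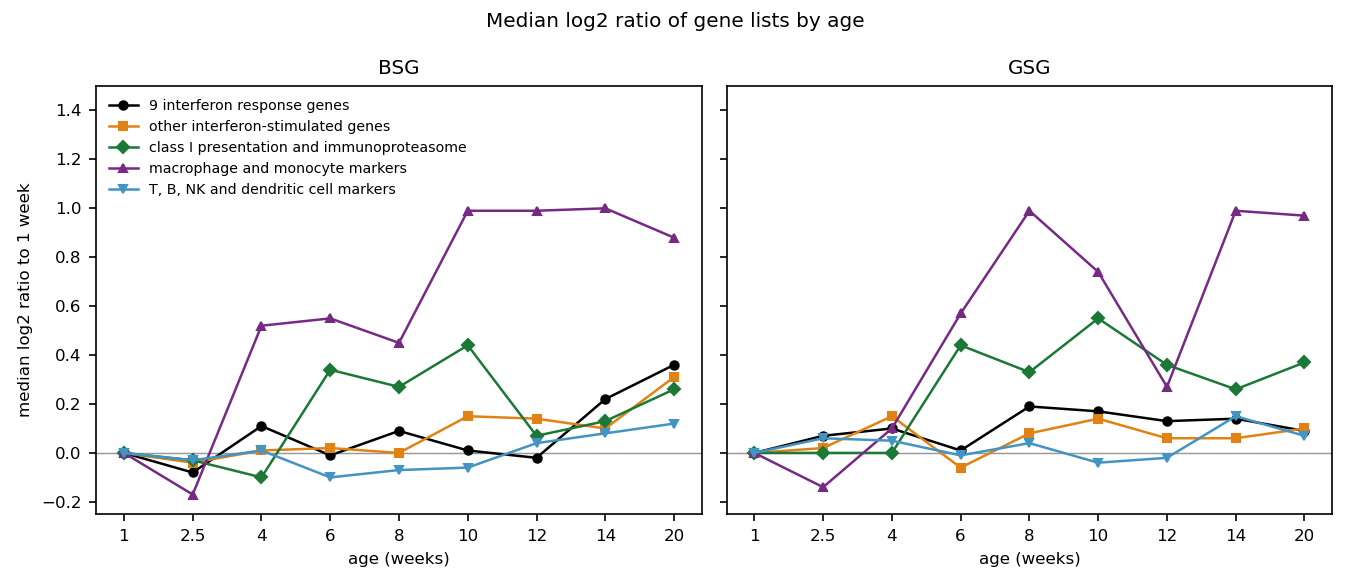
Median log2 ratio to 1 week (y axis) by age in weeks (x axis, ages evenly spaced) of the 9 interferon response genes and of 4 other lists, BSG left and GSG right. At 20 weeks the macrophage and monocyte markers reach 0.88 in BSG and 0.97 in GSG, and the 9 genes 0.36 in BSG and 0.09 in GSG.

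The measurement itself differed between the genes. In a closed loop the 9 log2 ratios should add up to 0, apart from error and a part that the dyes add alike to every array. For *Irf7* the sum was -3.26 in BSG loop 1 and -3.51 in BSG loop 2, with 9 of 9 arrays below 0 in each, at percentiles 1.39 and 1.33 of the array. The GSG sums were smaller, -1.54 and -1.43. *Ifit3* departed the other way, with sums of 1.42 and 2.38 in BSG and 1.17 and 2.26 in GSG, but these lay at percentiles 83.5, 93.9, 74.5 and 90.0, within the range of the array, and *Mx1* had sums of up to 1.62 in BSG and 1.83 in GSG. An equal offset on all arrays of a loop leaves the age estimates as they are and enters their error. With a dye term the error at 20 weeks became 0.16 for *Irf7*, against 0.28 without, and 0.26 for *Ifit3*, against 0.30, and 0 of 72 pairs passed in either strain. The 2 spots of a gene correlated over the 36 arrays at 0.87 for *Ifit1*, 0.75 for *Ifit3*, 0.69 for *Irf1*, 0.50 for *Irf8*, 0.45 for *Isg15*, 0.35 for *Mx1*, 0.31 for *Irf7*, 0.09 for *Ifit2* and 0.08 for *Stat2*.

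**Figure D5:**
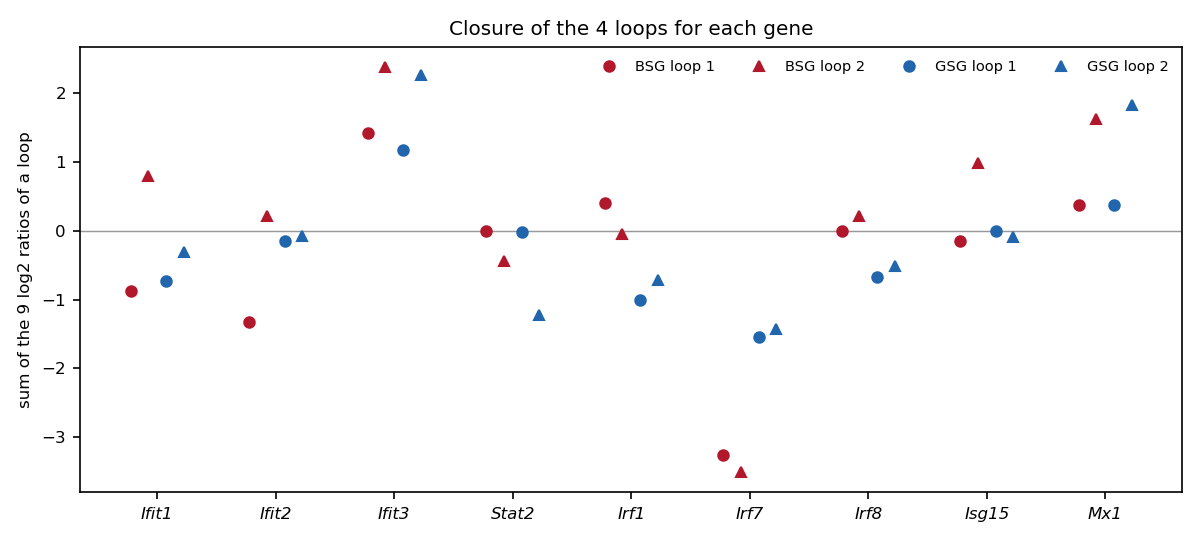
Sum of the 9 log2 ratios of each closed loop (y axis) for the 9 genes (x axis), BSG in red left of GSG in blue, circles for loop 1 and triangles for loop 2. The sums of Irf7 are the lowest, -3.26 and -3.51 in BSG, and those of Ifit3 run from 1.17 to 2.38.

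Over the whole series, duplicate spots correlated across oligonucleotides with a median of 0.54 over the 36 arrays, and below 0.3 on 9 of them, all but 1 in the loops numbered 1. With the direction taken here, genes of newborn muscle mostly fell towards 20 weeks. At that age 7 of 15 oligonucleotides were called lower and 0 higher in BSG, against 0.849% and 0.431% of the array. In GSG 8 of 15 were lower and 0 higher, against 3.03% and 0.713%. *Myog*, *Ncam1*, *Chrng* and *Igf2* were called in neither strain. *Dlk1*, an imprinted gene of fetal tissue, fell by 3.05 in BSG and fell by 3.54 in GSG. The study had reported a fall of *Dlk1* with age, partly on these arrays and also by quantitative PCR.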

How the data were processed

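Quadriceps RNA of 36 mice was amplified and, as Cy3- or Cy5-labelled RNA, hybridised to 2-colour arrays of oligonucleotides printed in duplicate, scanned with GenePix. Normalization was done by the authors before deposit with the smida package of R (all.norm), which takes out trends over the slide, between dyes and between slides. What was deposited is, for every spot, the ratio of the 2 dyes on a log scale, taken here as log2 of Cy5 over Cy3, which is likely but not stated. Removing an across-array effect assumes that most genes do not differ between the mice of an array. The 9 arrays of a loop, and the strain, were read from the array titles and the dye labels. Of 16416 spots, 80 pairs of spots of the same control were averaged into 1 oligonucleotide, and duplicate spots were averaged. Among the resulting 8129 oligonucleotides, 6752 carried 1 gene symbol, 7 several and 1370 none. There were no counts and no missing values, array medians lay between -0.06 and 0.04, and no detection call could be made from ratios.

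All ages of both strains were fitted together on the 36 arrays with limma 3.58.1 in R 4.3.3 (lmFit and eBayes, 20 residual degrees of freedom), each age being set against 1 week. Adjusted p-values are by Benjamini-Hochberg over all 8129 oligonucleotides with a threshold of 0.05. The Hotelling test was modelled on the study's description, with 3 and 30 degrees of freedom. It was run on averaged duplicate spots of BSG and GSG alone, inputs that may differ from the study's, so that its calls need not be the same. The value of single mice was solved by least squares within each loop. Tests were tried on simulated data before use, and figures were drawn with matplotlib 3.10.9 in Python 3.11.15.

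The text names all 9 genes, of each other list up to 4 genes called in either strain by the smallest F test p, otherwise the gene with the smallest such p, and the 5 genes most like the mean of the 9 genes. The members and lists were chosen with earlier results of these data known, and the limit of 29 mice was set after the values were seen. The labels do not say whether mice of a loop share anything else. The p-values rest on the spread of array ratios around the fit, which mixes differences between mice with array, spot and dye error. Since the mice of an age were mostly littermates, these p-values do not reach beyond the animals used. Alternatives concerned spots, dye, scaling, array quality, loops, moderation and the unit of replication.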

Additional observations from a re-analysis of the deposited data

How the results depend on the processing

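Across the alternatives 0 of the 9 genes were called in each comparison, with 1 exception. Leaving out loops in turn gave 0 to 2 called pairs of a gene and an age in BSG. The 2 arose without BSG loop 2, where *Ifit1* at 20 weeks was 1.66 (adjusted p = 0.0126) and *Ifit3* 1.42 (adjusted p = 0.0482), the lone mouse being assumed to vary like the others. The smallest adjusted p over the alternatives ran from 0.0126 to 0.999 for the BSG pairs and from 0.0882 to 0.572 for the GSG pairs. With 1 value per mouse and the loop as a replicate block, 0 were called, with 5 pairs in BSG and 11 in GSG at an unadjusted p of 0.05. Over all alternatives such pairs numbered 0 to 5 in BSG, the 0 without BSG loop 1, and 1 to 11 in GSG. The share of the whole array at that p was not computed for the alternatives, so that no excess can be read from these counts. No label says that loop numbers pair mice, and mice of the same number correlated with a median of -0.05 in BSG and 0.01 in GSG, values that centring on the loop mean pushes down. As a random block, the loop had a correlation of 0.11.

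Signs of single estimates were less stable, and the cause was not tested. At 20 weeks the second spot alone gave -0.10 for *Ifit2* and -0.01 for *Irf7* in BSG and -0.02 for *Ifit2* in GSG. The first spot alone gave -0.09 for *Isg15* in BSG, and 0.12 for *Irf7* and 0.11 for *Mx1* in GSG. Scaling gave -0.02 for *Stat2* in GSG, and leaving out arrays with poor duplicates 0.00 for *Irf7* in GSG. For the mean of the later ages, the first spot gave 0.06 for *Ifit2* and 0.01 for *Stat2* in BSG and 0.07 for *Mx1* in GSG, and the second spot -0.07 for *Irf1* in BSG and 0.18 for *Stat2* in GSG. Median centring gave 0.01 for *Stat2* and scaling -0.04 for *Irf1*, both in BSG. Leaving out arrays with poor duplicates gave 0.00 for *Stat2*, 0.00 for *Irf1* and -0.03 for *Irf7* in BSG. In GSG, whose loops are then open between 2.5 and 4 weeks, it gave -0.41 for *Ifit3*, 0.32 for *Stat2* and 0.43 for *Irf7*. With all arrays the GSG values were 0.48 for *Ifit3* and -0.18 for *Irf7*.

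Leaving out 1 loop at a time, 20-week values ran from -0.03 to 0.32 for *Irf7* and from -0.29 to 0.07 for *Mx1* in BSG, and in GSG from -0.04 to 0.22 for *Ifit2*, from -0.03 to 0.05 for *Stat2* and from -0.37 to 0.05 for *Irf7*. Means of the later ages ran in BSG from -0.16 to 0.01 for *Ifit2*, from -0.23 to 0.23 for *Stat2*, from -0.13 to 0.19 for *Irf1*, from -0.23 to 0.38 for *Irf7* and from -0.01 to 0.29 for *Isg15*. In GSG they ran from -0.10 to 0.29 for *Ifit2*, from -0.06 to 0.03 for *Stat2* and from -0.37 to 0.00 for *Irf7*. With 2 mice per age, changes within the intervals given could not be seen.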
